A study of Mus musculus with 12 samples.

Results

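This comparison sets hearts of Adam12 knockout mice against hearts of wild type mice 2 weeks after transverse aortic constriction (TAC). Its members were chosen by their titles, as the 3 arrays titled for the knockout with TAC and the 3 titled for the wild type with TAC, which are 6 of the 12 arrays in the series. All 12 mice were male, of strain C57BL/6J and 10 weeks old per the labels, and each array held total RNA of heart tissue labelled as a separate biological replicate. Both TAC groups carried the constriction and differed by genotype. The 6 other arrays were from hearts of both genotypes, 3 each, taken 2 weeks after a sham operation. How the Adam12 allele was inactivated, and which chambers of the heart were taken, was not given in the sources used here. The series asks which signalling genes differ in hearts under this load.

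TAC narrows the aortic arch, so that the left ventricle pumps against a raised pressure. Heart muscle cells then grow and turn on genes of the fetal heart, and fibroblasts between them become activated and lay down collagen and other matrix. ADAM12 is one of the ADAM metalloproteases, which sit in the cell membrane and cut the outer parts of surface proteins. It is known for releasing heparin-binding EGF-like growth factor from the surface of heart muscle cells and for cleaving binding proteins of insulin-like growth factors.

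Adam12 itself was read on a dim probe set that also carries the symbol 5830403F22Rik and was brighter than 37.8% of probe sets. The wild type TAC hearts, replicates 1 to 3, had log2 signals of 4.56, 4.73 and 4.80, and the knockout TAC hearts had 4.25, 4.40 and 4.36. In sham hearts the signals were 4.54, 4.46 and 4.61 for the wild type and 4.33, 4.40 and 4.32 for the knockout. Over both surgeries every knockout heart (4.25 to 4.40) lay below every wild type heart (4.46 to 4.80). The knockout TAC hearts were all below the wild type ones, with a difference of -0.37 ± 0.09 (limma standard error). A 2-sided exact permutation test gave p = 0.1, the smallest that 20 assignments of 3 against 3 arrays allow, and limma over all probe sets gave adjusted p = 0.163. Whether these probes lie in the inactivated stretch of Adam12 is unknown here, so this reading says little about the labels. Among the 50 measured genes nearest to Adam12 on chromosome 7, 25 on each side, the median difference was -0.04, as it was over the 2521 other genes of that chromosome. Of these neighbours 5 lay higher and 5 lower in the knockout without overlap, against 190 and 268 of the 2521 (over all genes 7.91% lay higher and 11.3% lower).

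The 6 TAC arrays had similar signal. Their medians over all probe sets ran from 4.93 to 5.10 on the log2 scale, with the highest in wild type replicate 3, and the medians of 23 background probe sets ran from 2.96 to 3.15. The spread within groups was wider in the wild type: the median standard deviation of a gene was 0.136 over the wild type TAC arrays and 0.107 over the knockout TAC arrays. Wild type replicate 3 had the lowest of the 12 array weights (0.44), which limma sets lower the farther an array lies from its group. Nppa in the knockout, at 19.66 to 19.91, was close to the highest value that an array held (19.85 to 19.93). Whether this narrowed its difference was not tested. Markers of heart muscle were bright on all 6 arrays, with Myh6 between 19.25 and 19.37 and the ventricular light chain Myl2 between 12.67 and 12.94.

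Mmp3, Ccn5 and Fam180a rose in the knockout, the 3 genes of 26989 called at a limma adjusted p under 0.05 (0.0111% of genes tested), and 0 genes (0.0%) were called lower. Their level differences were 1.67 ± 0.20, 1.18 ± 0.15 and 0.84 ± 0.09 on the log2 scale. Each had an adjusted p of 0.044. Promoters of Mmp3 and Fam180a are printed because these are called genes with an entry in the table used here. The sequences are from RefSeq (GRCm38.p6) and run from 250 bases before the annotated start of the gene to 50 after it. Those of Mmp3 are at chr9:7445572-7445871 on the plus strand and those of Fam180a at chr6:35326092-35326391 on the minus strand. Capitals mark the letters TGANTCA, the site of AP-1, and TATAAA, the TATA box.
Mmp3: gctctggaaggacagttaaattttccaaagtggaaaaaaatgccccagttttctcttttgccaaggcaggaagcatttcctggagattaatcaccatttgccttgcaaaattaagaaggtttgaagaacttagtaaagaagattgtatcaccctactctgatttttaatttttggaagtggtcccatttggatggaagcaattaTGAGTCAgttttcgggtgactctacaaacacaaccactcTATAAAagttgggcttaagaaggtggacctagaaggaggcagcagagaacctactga
Fam180a: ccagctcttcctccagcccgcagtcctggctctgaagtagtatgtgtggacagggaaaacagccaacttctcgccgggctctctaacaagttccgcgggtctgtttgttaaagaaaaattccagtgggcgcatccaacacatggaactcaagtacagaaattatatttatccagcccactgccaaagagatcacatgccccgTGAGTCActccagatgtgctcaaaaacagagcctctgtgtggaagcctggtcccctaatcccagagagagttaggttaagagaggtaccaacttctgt

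Both stretches hold TGAGTCA, whose first base is 46 bases before the annotated start in Mmp3 and 48 before it in Fam180a. TATAAA stands in Mmp3, with its first base 7 bases before the annotated start, and not in Fam180a. Of 32851 RefSeq promoters of this length, 7.8% hold TGANTCA and 13.6% hold TATAAA, counted on both strands. Among tested genes with a promoter, TGANTCA was in 31 of 358 (8.7%) of those higher at adjusted p under 0.1, in 8 of 129 (6.2%) of those lower and in 1382 of 16289 (8.5%) of all. The other letters searched on both strands were CAGAC and GTCTAGAC (SMAD), GGAATG (TEAD), GGAA (ETS) and CANNTG (E-box), which are in 49.6%, 0.2%, 14.7%, 96.0% and 72.3% of promoters. Mmp3 held GGAA at 7 places and CANNTG at 2, and Fam180a held them at 6 and 3, with CAGAC at 1. A match is a run of letters only, and no binding was measured here.

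Mmp3 encodes stromelysin-1, a secreted protease that cuts proteoglycans, fibronectin and laminin and activates other matrix metalloproteases. It read 7.01, 6.88 and 6.42 on the log2 scale in wild type TAC hearts and 8.41, 8.29 and 8.61 in knockout TAC hearts. The lowest knockout array stood above the highest wild type array by more than the range of either group, and the fold was 3.17 (95% confidence interval of the log2 difference 1.21 to 2.11). In sham hearts the same gene read 6.93, 6.87 and 6.22 in the wild type and 6.94, 6.72 and 6.47 in the knockout, a difference of 0.04. Of the wild type TAC hearts 2 lay within the range of the sham hearts, and the knockout TAC hearts lay above all 9 others.

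Ccn5 encodes a secreted CCN protein that lacks the C-terminal domain of its relatives Ccn1 and Ccn2. It read 7.07, 7.41 and 6.87 in wild type TAC hearts and 8.24, 8.59 and 8.07 in knockout TAC hearts, a fold of 2.27. The sham hearts lay lower than all TAC hearts, at 6.28 to 6.46, and differed by -0.02 between genotypes. Fam180a was dim, brighter than 36.2% of genes, and read 4.46, 4.62 and 4.50 in wild type TAC hearts against 5.45, 5.28 and 5.36 in knockout TAC hearts. Its sham difference was -0.14. The knockout TAC arrays stood apart from the other 9 arrays in each of these genes.

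**Figure D1:**
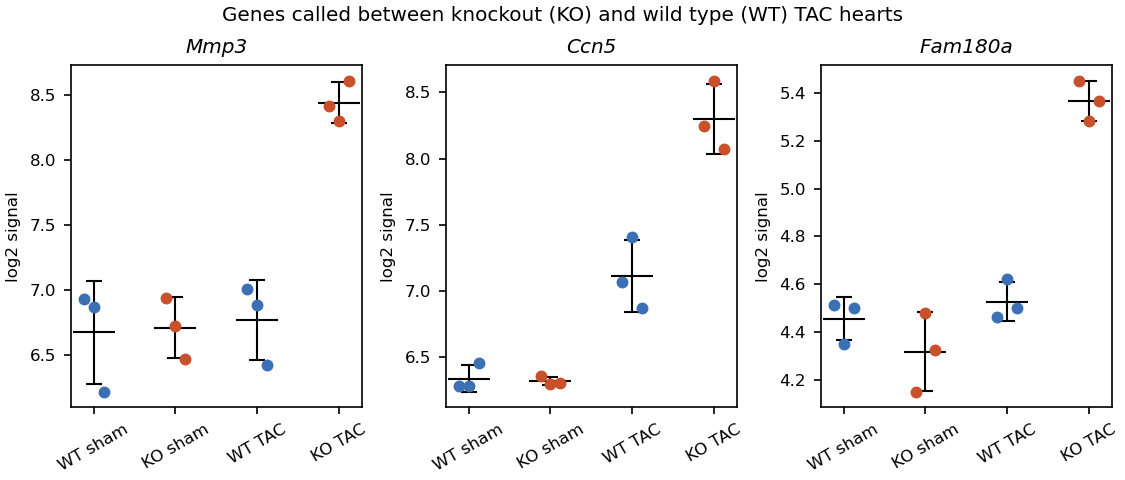
Log2 signal (y axis) of Mmp3, Ccn5 and Fam180a on all 12 arrays by group (x axis), with points for hearts (blue, wild type; orange-red, knockout) and black bars for mean ± SD over 3 arrays. In each gene the 3 knockout TAC hearts lie above the 9 other hearts, with Mmp3 at 8.29 to 8.61.

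These calls turned on the setting. Mmp3 was at adjusted p under 0.05 in 7 of 21 alternative settings, Ccn5 in 5 of 21 and Fam180a in 9 of 20 (it is too dim for a filter on low signal). Their limma adjusted p was 0.276 with only the 6 TAC arrays fitted, and 0.117 with Myl7, an atrial marker, as a covariate. It was 0.167 and 0.134 once wild type TAC replicate 1 or 3 was left out, and 0.0642 and 0.179 with knockout TAC replicate 1 or 2 left out. Leaving out any 1 of the sham arrays but wild type replicate 3 also took Mmp3 past 0.05, to 0.0742 to 0.0912. The differences ran from 1.49 to 1.78 for Mmp3, 1.04 to 1.33 for Ccn5 and 0.79 to 0.90 for Fam180a over these settings. Many settings could not move them: the block, variance model, dim filter, all probe sets and sham arrays leave the TAC difference as it was.

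At the looser adjusted p under 0.1, 502 genes were higher (1.86% of genes tested) and 193 lower (0.715%) in the knockout. Of these 695 genes 72.2% were higher, and with arrays centred on their medians the counts were 620 and 63, so that 90.8% were higher. Differences of at least 1 on the log2 scale were nearly all upward, with 67 genes higher and 1 lower. At an unadjusted p under 0.05 there were 1858 genes higher (6.88%) and 2070 lower (7.67%). Groups did not overlap in 2136 genes that were higher (7.91%) and 3045 that were lower (11.3%). The median difference of all genes was -0.04.

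These counts turned on single arrays. With wild type TAC replicate 1, wild type TAC replicate 3 or knockout TAC replicate 2 left out, limma counted 0 genes at adjusted p under 0.1. With knockout TAC replicate 1 left out, 48 higher and 4 lower genes were counted. Leaving out wild type TAC replicate 2 gave 516 genes higher and 258 lower at adjusted p under 0.05, and leaving out knockout TAC replicate 3 gave 134 and 18. Wild type replicate 2 was the wild type array nearest to the knockout mean in 561 of the 695 genes (80.7%), and in 12318 of all 26989 genes (45.6%).

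**Figure D2:**
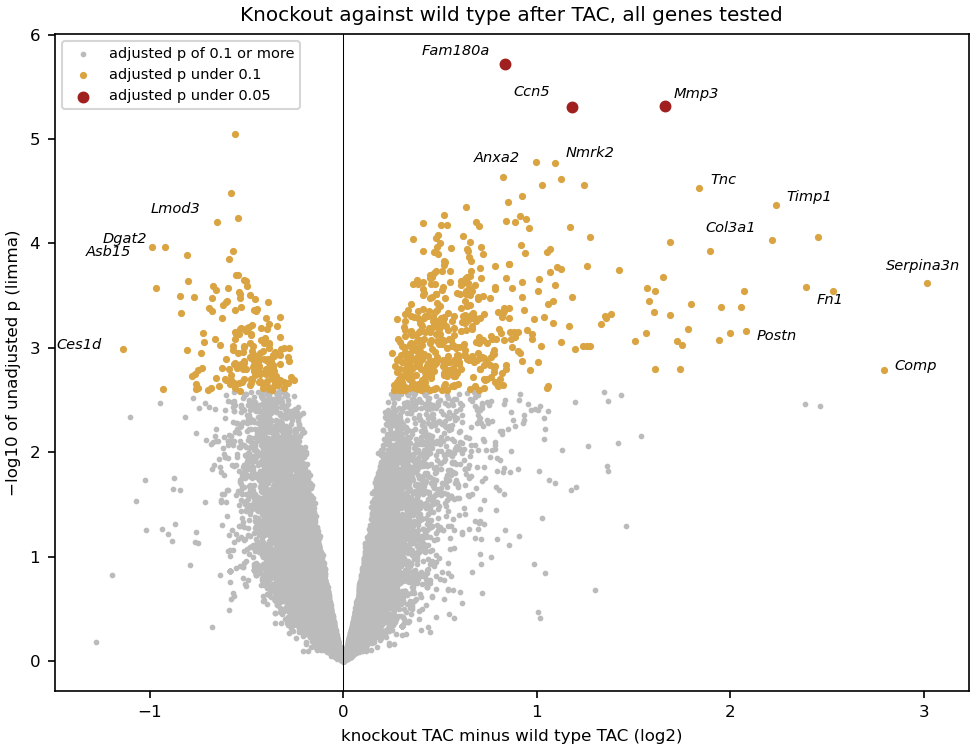
Difference between knockout and wild type TAC hearts on the log2 scale (x axis) against the -log10 of limma's unadjusted p (y axis), a point for each of 26989 genes. Red points are the 3 called genes, and orange points have an adjusted p under 0.1; the right arm reaches a difference of 3.02 (Serpina3n) and the left arm -1.14 (Ces1d) among orange points.

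The 9 genes next by p on the higher side did not pass. Anxa2, which links membranes to the actin skeleton, read 8.80, 9.26 and 8.86 in the wild type and 9.97, 10.13 and 9.81 in the knockout, a difference of 1.00 ± 0.14. Cd44, the receptor for hyaluronan, read 7.38, 7.69 and 7.37 against 8.21, 8.49 and 8.22. Cd109, a surface protein that binds TGF-beta, read 7.42, 7.92 and 7.37 against 8.62, 8.79 and 8.69. Each had an adjusted p of 0.0592.

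The same adjusted p, 0.0592, stood beside 6 more. Ptgs2, the inducible cyclooxygenase of prostaglandin synthesis, differed by 1.03 ± 0.15. Plvap, a protein of the diaphragms of leaky vessels, differed by 1.24 ± 0.18, and the vessel adhesion molecule Mcam by 0.85 ± 0.13. Nmrk2, a muscle kinase that makes NAD from nicotinamide riboside, read 6.44, 6.98 and 6.47 in the wild type and 7.71, 7.93 and 7.54 in the knockout. Tnc, the matricellular tenascin C, differed by 1.84 ± 0.28 and the fibronectin receptor chain Itga5 by 0.93 ± 0.14. Of these 9 genes Plvap had the highest sham difference (0.34), and the others were between -0.17 and 0.13.

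Serpina3n, an inhibitor of serine proteases made under inflammation, had the highest difference at adjusted p under 0.1. Its log2 signal was 10.42, 11.09 and 9.92 in the wild type and 13.89, 14.37 and 12.22 in the knockout, an 8.10-fold difference (3.02 ± 0.57, adjusted p = 0.0592). Comp, cartilage oligomeric matrix protein, read 9.45, 11.15 and 7.33 against 12.12, 12.25 and 11.94 (2.80 ± 0.68, adjusted p = 0.0816). The knockout hearts were alike in Comp while the wild type hearts ranged widely, and wild type replicate 2 was the highest of them in both genes.

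The 12 genes first by p on the lower side did not pass either. Dgat2, which makes triglyceride, read 15.25, 14.54 and 14.93 in the wild type and 14.07, 13.86 and 14.04 in the knockout (-0.92 ± 0.16, adjusted p = 0.0592). Asb15, a muscle adaptor of ubiquitin ligases, read 13.46, 13.07 and 13.43 against 12.48, 11.95 and 12.58, and Lmod3, which nucleates actin filaments in sarcomeres, 10.44, 10.18 and 10.49 against 9.62, 9.68 and 9.85.

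Others at adjusted p = 0.0592 were Prxl2a (-0.54), Osbpl6 (-0.59), Dcun1d2 (-0.55), the amino acid transporter Slc16a10 (-0.80), the D-lactate dehydrogenase Ldhd (-0.59) and Smco1 (-0.97). The carboxylesterase Ces1d had the lowest difference of the 193 genes, with 9.04, 8.07 and 9.33 in the wild type and 8.01, 7.54 and 7.48 in the knockout (-1.14 ± 0.26, adjusted p = 0.0732). Tcea3, a transcription elongation factor, Ky, a muscle protein of the Z-disc, and Dhrs7c, a dehydrogenase of the sarcoplasmic reticulum, differed by -0.85, -0.84 and -0.81. Wild type replicate 2 was again the wild type array nearest to the knockout in Ces1d, Tcea3, Ky and Dhrs7c.

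Gene lists were then read member by member, in 39 pathways and 18 sets of cell type markers. Apart from Mmp3 and Ccn5 no list member passed at adjusted p under 0.05. Counts at adjusted p under 0.1 and of groups without overlap therefore describe the lists, against the shares over all genes given above (1.86% and 7.91% higher, 0.715% and 11.3% lower). Counts of positive and negative differences stand against 10325 positive and 16664 negative over all 26989 genes. With arrays centred on their medians these were 15123 and 11866. Heart tissue was measured in bulk, so a larger number of cells of a type and more RNA per cell cannot be told apart.

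Collagens form the fibres, networks and basement membranes of the matrix. All 21 measured members had a positive difference, with a median of 1.07. Of them 14 were higher at adjusted p under 0.1, and in 16 the groups did not overlap. Col3a1, a fibrillar collagen of young scar, read 11.15, 12.28 and 10.30 in the wild type and 13.70, 13.61 and 13.06 in the knockout (2.21 ± 0.38, adjusted p = 0.0592). Col1a1, the main fibrillar collagen, read 11.10, 12.40 and 10.07 against 13.51, 13.24 and 12.99 (2.06 ± 0.42, adjusted p = 0.0631). The knockout hearts were close to each other, and wild type replicate 3 was the lowest in both.

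The basement membrane chains Col4a1 and Col4a2 differed by 1.11 ± 0.20 and 1.17 ± 0.19, and the microfibril chain Col6a1 by 1.27 ± 0.21. Their relatives Col4a3 and Col4a4 differed by 0.09 each, with groups that overlap. Col12a1, which decorates collagen fibres, read 7.20, 8.87 and 6.46 in the wild type and 9.45, 9.49 and 9.59 in the knockout. The collagen median was 0.85 without wild type TAC replicate 3 and 1.36 without replicate 2, and in sham hearts it was -0.03.

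Enzymes that modify, process and cross-link collagen had positive differences in 15 of 15 members, with 8 higher at adjusted p under 0.1 and a median of 0.39. Loxl3 and Loxl1, lysyl oxidases that cross-link collagen and elastin, differed by 1.61 ± 0.31 and 1.58 ± 0.31. Bmp1, which trims procollagens, differed by 0.85 ± 0.15, Plod2, a lysyl hydroxylase, by 0.65 ± 0.12 and the transglutaminase Tgm2 by 0.78 ± 0.15. The prolyl hydroxylases P4ha1 and P4ha2, which stabilise the triple helix, differed by 0.34 and 0.01, with overlapping groups. Serpinh1, the collagen chaperone, differed by 0.39 (adjusted p = 0.28).

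Matricellular and adhesive glycoproteins carry signals between cells and matrix. All 18 had positive differences, 8 of them at adjusted p under 0.1, and the median was 0.70. Fn1, fibronectin, read 12.05, 12.78 and 10.51 in the wild type and 14.55, 14.35 and 13.61 in the knockout (2.39 ± 0.46, adjusted p = 0.0592). Thbs1, which activates TGF-beta, read 9.92, 11.75 and 9.27 against 12.85, 13.19 and 12.49 (2.53 ± 0.49). Postn, the periostin of activated fibroblasts, read 14.09, 15.74 and 13.29 against 16.38, 16.78 and 16.21 (2.08 ± 0.45, adjusted p = 0.0675).

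Thbs4 and Cilp had groups that did not overlap but a wide wild type. Thbs4 read 10.26, 12.52 and 8.96 in the wild type and 12.69, 12.96 and 13.25 in the knockout (adjusted p = 0.112). Among CCN proteins, Ccn2, the connective tissue growth factor, read 9.81, 11.36 and 9.38 against 12.77, 12.06 and 11.94 (2.07 ± 0.40, adjusted p = 0.0592). Ccn4 differed by 0.66 ± 0.13 at the same adjusted p, Ccn1 by 0.70 ± 0.32 with overlapping groups and Ccn6 by -0.16 ± 0.08.

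**Figure D3:**
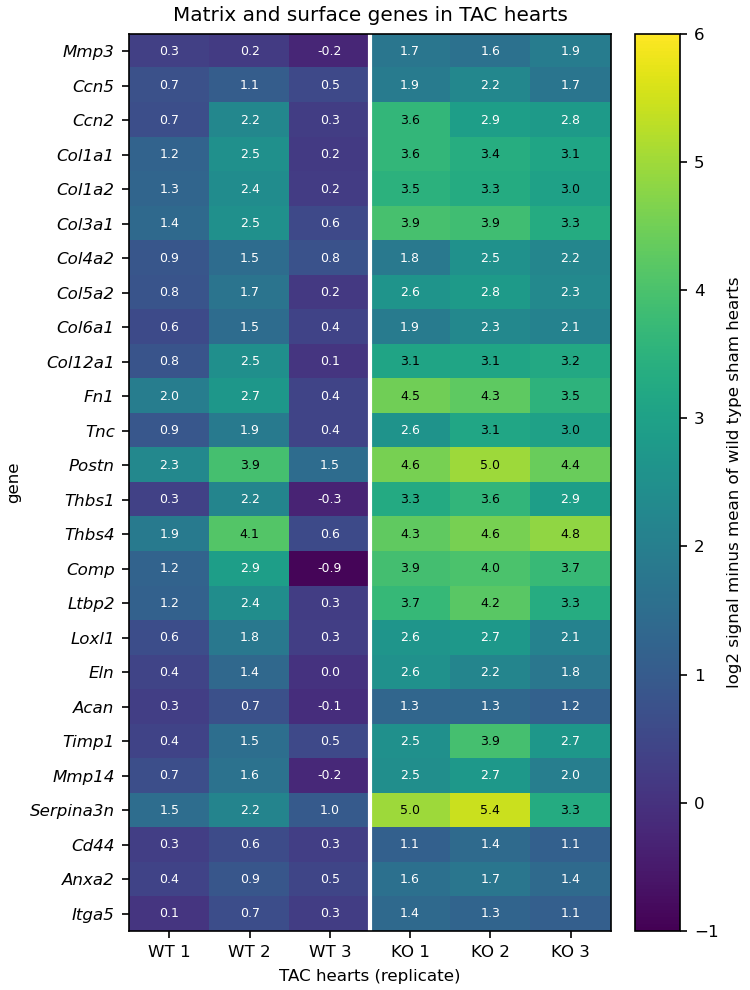
Log2 signal of matrix and surface genes (rows) on the 6 TAC arrays (columns) minus the mean of the wild type sham hearts, printed in each cell and coloured from dark (low) to yellow (high). The 3 knockout columns are alike in most rows, while wild type replicate 2 is the highest of its group in most rows and replicate 3 the lowest. In Serpina3n and Timp1 the knockout hearts spread more (SD 1.127 and 0.776) than the wild type ones (0.585 and 0.617).

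Proteoglycans carry sugar chains and organise collagen fibres. Of 16 members 13 had a positive difference, 3 were higher at adjusted p under 0.1 and the median was 0.51. That median was 0.10 with wild type TAC replicate 3 left out, 0.85 with wild type replicate 2 left out and 0.32 with knockout replicate 1 left out. Hspg2, the perlecan of basement membranes, differed by 0.64 ± 0.10, the cartilage proteoglycan Acan by 0.96 ± 0.16 and Vcan by 1.20 ± 0.27. The fibroblast proteoglycans Dcn and Ogn, among the brightest genes at 15.80 to 16.65, differed by 0.26 and 0.14 with overlapping groups.

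Of 11 elastic fibre genes all had positive differences and 7 were higher at adjusted p under 0.1. Ltbp2 read 7.49, 8.75 and 6.57 in the wild type and 10.01, 10.53 and 9.64 in the knockout (2.45 ± 0.41, adjusted p = 0.0592). Fbln2, which binds fibronectin and elastin precursors, read 9.33, 9.37 and 9.16 against 10.36, 10.35 and 9.82, with little spread in the wild type. Eln, elastin itself, differed by 1.56 ± 0.34 and the microfibril protein Mfap5 by 1.80 ± 0.36.

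Of 14 matrix metalloproteases 12 had a positive difference and 2 a negative one, with a median of 0.09. Without overlap 5 lay higher and 1 lower. Beside Mmp3, 3 of 14 members were higher at adjusted p under 0.1: Mmp14, the membrane-bound activator of Mmp2 (1.69 ± 0.35), Mmp19 (0.64 ± 0.12) and Mmp23 (0.47 ± 0.11). Mmp2, gelatinase A, read 13.13, 13.76 and 11.40 in the wild type and 14.50, 14.15 and 13.89 in the knockout (1.42 ± 0.44, adjusted p = 0.162). The others, Mmp8, Mmp9, Mmp10, Mmp11, Mmp12, Mmp13, Mmp16, Mmp17 and Mmp28, differed by -0.13 to 0.24.

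Inhibitors of these proteases are the TIMPs and related proteins. Timp1 read 5.80, 6.92 and 5.92 in the wild type and 7.90, 9.34 and 8.11 in the knockout (2.23 ± 0.35, adjusted p = 0.0592). Timp2 and Timp3 differed by 0.50 and 0.23 and Timp4 by -0.88 ± 0.44, with overlapping groups in each; Timp4 stood at 9.56 in wild type replicate 3 and at 6.88 to 7.84 in the other 5 hearts.

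Relatives of ADAM12 were measured in a list of ADAM and ADAMTS proteases. Of 18 members 16 had a positive difference, 6 were higher at adjusted p under 0.1 and 9 had groups without overlap. Adam9, a sheddase expressed in heart, read 11.51, 11.70 and 11.54 in the wild type and 12.09, 12.24 and 11.97 in the knockout (0.52 ± 0.09, adjusted p = 0.0592). Adam15 read 7.20, 7.23 and 7.14 against 7.68, 7.59 and 7.54 (0.41 ± 0.07). These 2 had narrower groups than the matrix genes, and their differences were smaller.

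The sheddases Adam10 and Adam17 differed by 0.28 ± 0.07 (adjusted p = 0.0782) and 0.24 ± 0.09 (adjusted p = 0.253). Adam19, which like ADAM12 belongs to the meltrins, read 9.34, 9.69 and 7.88 in the wild type and 9.26, 10.10 and 9.67 in the knockout, with overlap. Adamts4, which cuts aggrecan and versican, differed by 0.60 ± 0.12 and Adamtsl2, a binding partner of Ltbp1, by 0.94 ± 0.19. Adam8, Adam22, Adam23 and Adam33 differed by -0.08 to 0.04.

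Substrates that ADAM12 is known to cut were read with their receptors. Of 10 EGF ligands and ERBB receptors 1 was higher at adjusted p under 0.1, the ligand Ereg (4.94, 5.77 and 4.78 against 6.03, 6.08 and 6.12; 0.91 ± 0.21). Egfr, the receptor of heparin-binding EGF-like growth factor, read 7.56 to 8.55 in the wild type and 8.58 to 8.94 in the knockout (0.70 ± 0.20, adjusted p = 0.13). The ligand Egf read 6.55, 6.01 and 6.35 against 5.90, 5.83 and 5.84, lower without overlap (-0.45 ± 0.13, limma adjusted p = 0.148). Nrg4 was also lower without overlap (-0.14 ± 0.085). Over this list 5 differences were positive and 5 negative, with a median of -0.01, and 4 genes lay higher and 2 lower without overlap. Hbegf was not analysed here. Igfbp3 and Igfbp5, whose products ADAM12 cleaves, differed by 0.22 (95% confidence interval -0.20 to 0.64) and 0.48 (0.05 to 0.91), with adjusted p of 0.634 and 0.279. Igfbp4 differed by 0.72 ± 0.17 (adjusted p = 0.0777).

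The TGF-beta list holds ligands, receptors and targets of the pathway that drives fibroblasts to make matrix. Of 17 members 15 had a positive difference, 7 were higher at adjusted p under 0.1 and 11 had groups without overlap. Among ligands Tgfb1 read 7.97, 8.14 and 7.74 in the wild type and 8.44, 8.81 and 8.57 in the knockout (0.66 ± 0.12, adjusted p = 0.0592). Tgfb2 and Tgfb3 differed by 1.02 ± 0.28 and 1.37 ± 0.37, at adjusted p = 0.114 and 0.11. The activin chain Inhba differed by 0.55 ± 0.12.

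Among receptors Tgfbr1 read 9.63, 9.86 and 9.41 against 10.47, 10.27 and 10.06, and Tgfbr2 read 10.56, 10.62 and 10.19 against 11.14, 11.39 and 10.91. Their differences were 0.63 ± 0.12 and 0.69 ± 0.14, while Tgfbr3, which presents ligands, differed by -0.30 ± 0.14. Fstl1, a secreted glycoprotein of the follistatin family, differed by 1.57 ± 0.30 and Skil, a feedback inhibitor of SMADs, by 0.57 ± 0.14. In the BMP list 0 of 18 members were at adjusted p under 0.1, and 1 lay higher and 1 lower without overlap; the lists were not tested against each other.

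Integrins hold cells to matrix. Of 22 subunits 5 were higher at adjusted p under 0.1. Itga5, which with Itgb1 binds fibronectin, read 10.44, 11.03 and 10.63 in the wild type and 11.76, 11.62 and 11.49 in the knockout (adjusted p = 0.0592). Itgb1, the chain shared by most integrins of heart, read 15.33, 15.56 and 15.42 against 15.72, 15.84 and 15.73 (0.33 ± 0.08, adjusted p = 0.0772). Itgav, Itgb5 and Itgb8 differed by 0.46, 0.82 and 0.65. Itgb6 lay lower, at 9.64, 9.74 and 9.20 against 8.86, 8.70 and 8.94 (-0.69 ± 0.14, adjusted p = 0.0631).

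Inside the cell integrins are tied to actin by focal adhesion proteins. Of 17 of these 4 were higher at adjusted p under 0.1: talin 1 (Tln1, 0.48 ± 0.08), Parva (0.41 ± 0.09), zyxin (Zyx, 0.50 ± 0.11) and the actin cross-linker Actn1 (1.02 ± 0.23). Tln2 and Fermt2, at 9.04 to 9.17 and 13.36 to 13.55, differed by 0.02 and -0.04. Annexins and S100 proteins, which bind calcium and membranes, had 5 of 16 at adjusted p under 0.1, among them Anxa4 (0.58 ± 0.14) and Anxa3 (0.73 ± 0.18).

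Of the MAP kinase feedback and immediate early genes, 2 of 14 were higher at adjusted p under 0.1, and both are subunits of AP-1. Fosl2 read 7.75, 7.78 and 7.52 in the wild type and 8.57, 8.20 and 8.19 in the knockout (0.64 ± 0.13, adjusted p = 0.0631). Jund read 7.90, 7.94 and 7.91 against 8.55, 8.41 and 8.28 (0.50 ± 0.10, adjusted p = 0.0631). The immediate early subunits Fos, Fosb and Jun differed by -0.01, -0.01 and -0.14, with overlapping groups. No binding was measured, and the shares of TGANTCA in promoters are given above.

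Other signalling lists had few members at adjusted p under 0.1. Frzb and Sfrp1, secreted antagonists of WNT ligands, were higher at adjusted p under 0.1 (1.94 ± 0.43 and 1.75 ± 0.39), while the WNT ligands themselves differed by -0.12 to 0.16. Ace, which makes angiotensin II, read 11.65, 12.45 and 11.27 in the wild type and 13.16, 12.89 and 12.87 in the knockout (1.18 ± 0.23, adjusted p = 0.0592). Its receptor Agtr1a differed by -0.47 ± 0.16, with overlapping groups. Vegfd was the 1 growth factor of 16 in the FGF, PDGF and VEGF list at adjusted p under 0.1 (0.52 ± 0.11).

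Among 23 cytokines and chemokines 2 were higher at adjusted p under 0.1. Il6 was dim and read 4.14, 4.42 and 3.88 in the wild type and 4.80, 5.03 and 5.38 in the knockout (0.92 ± 0.16, adjusted p = 0.0592). Ccl8, which attracts monocytes, differed by 0.88 ± 0.19 (adjusted p = 0.0676), with knockout hearts at 5.86 to 6.39 and all wild type hearts below them. The neutrophil attractants Cxcl1, Cxcl2 and Cxcl5 differed by -0.17, -0.05 and 0.13, and Il1b by -0.02.

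Fetal and hypertrophy genes mark a heart under load. Nppb, brain natriuretic peptide, read 14.36, 15.38 and 14.19 in the wild type and 15.25, 15.69 and 15.47 in the knockout (0.83 ± 0.32, adjusted p = 0.261). Myh7, the slow myosin of the fetal heart, read 13.68, 15.02 and 14.11 against 15.32, 14.98 and 15.07 (0.85 ± 0.25, adjusted p = 0.142). In both genes wild type replicate 2 lay within the knockout range. Acta1, skeletal actin, differed by 0.46 (95% confidence interval -0.36 to 1.28, adjusted p = 0.613). Nppa, atrial natriuretic peptide, differed by 0.60 as measured (adjusted p = 0.592), with the knockout hearts near the top of the scale.

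Of the 13 genes in that list Nmrk2 and Ccn2 were at adjusted p under 0.1, 12 had positive differences, 5 had groups without overlap and the median was 0.48. With wild type TAC replicate 2 left out, 10 had groups without overlap and the median was 0.77. A count without overlap can only stay or rise as an array is left out, and its share over all genes was not taken. Sarcomere proteins lay close together: of 20, Lmod3 alone was at adjusted p under 0.1, and the median was -0.03. It ran from -0.05 to -0.002 as each TAC array was left out, and turned to 0.04 (13 positive of 20) with arrays centred on their medians. Ttn, Tnnt2, Actn2 and Myh6 differed by -0.04 to 0.05 with overlapping groups, and Myh6 was itself near the top of the scale. Tnni3, cardiac troponin I, read 14.27, 14.07 and 14.21 against 13.92, 13.74 and 13.98 (-0.30 ± 0.08, adjusted p = 0.104).

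Of 21 calcium handling genes and ion channels 1 was lower at adjusted p under 0.1, Hrc, which buffers calcium in the sarcoplasmic reticulum (13.97, 13.53 and 13.74 against 13.20, 13.05 and 13.31; -0.56 ± 0.12). The calcium pump Atp2a2 differed by -0.07 ± 0.06 (adjusted p = 0.654), which turned to 0.000452 with arrays centred on their medians, and its regulator Pln by -0.21 ± 0.08 (adjusted p = 0.215). The ryanodine receptor Ryr2 differed by -0.02.

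Muscle ubiquitin ligases and atrophy genes had 4 of 16 members lower at adjusted p under 0.1, and all 4 are Asb adaptors. Asb14 read 11.90, 11.52 and 11.74 in the wild type and 10.94, 10.62 and 11.31 in the knockout (-0.76 ± 0.19). Asb10 and Asb18 differed by -0.56 ± 0.14 and -0.33 ± 0.08. Trim63 and Fbxo32, the ligases of muscle wasting, differed by 0.21 and 0.09 with overlapping groups. With arrays centred on their medians 1 of the 16 was at adjusted p under 0.1.

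The heart burns fatty acids and amino acids in its mitochondria, and members of these lists had negative differences. The catabolism of branched-chain amino acids had 19 of 19 differences negative, 9 at adjusted p under 0.1 and 12 without overlap, with a median of -0.36. Dbt, the core of the branched-chain keto acid dehydrogenase, read 12.71, 12.13 and 12.60 in the wild type and 11.51, 11.67 and 11.83 in the knockout (-0.81 ± 0.14, adjusted p = 0.0592). The other subunits Bckdha and Bckdhb differed by -0.73 ± 0.18 and -0.63 ± 0.13, and the kinase that inhibits the complex, Bckdk, by -0.23 ± 0.09 (adjusted p = 0.292).

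Further down that pathway Aldh6a1 read 14.24, 13.88 and 14.37 against 13.44, 13.40 and 13.63, and Ivd, which acts on leucine, 11.65 to 12.04 against 11.13 to 11.39. The carboxylase chains Pcca, Mccc1 and Mccc2 differed by -0.46, -0.36 and -0.48. Hibch and Acad8, of valine breakdown, differed by -0.21 and -0.05 with overlapping groups. In the sham hearts the median of the list was 0.00.

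Fatty acid uptake and oxidation had 23 of 23 differences negative, 7 at adjusted p under 0.1, 15 without overlap and a median of -0.36. Hadh read 15.15, 14.88 and 15.21 in the wild type and 14.55, 14.50 and 14.68 in the knockout (-0.50 ± 0.10, adjusted p = 0.0592). The trifunctional protein chains Hadha and Hadhb differed by -0.36 and -0.35, the medium-chain dehydrogenase Acadm by -0.36 and Cpt2, which takes acyl groups into the matrix of mitochondria, by -0.54 ± 0.14. The uptake proteins Cd36 and Fabp3 differed by -0.14 and -0.02, with groups that overlap.

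The TCA cycle had 19 of 19 negative differences with 1 at adjusted p under 0.1, Suclg2 (-0.53 ± 0.10), and a median of -0.24. The respiratory chain had 22 of 22 negative with 0 at adjusted p under 0.1 and a median of -0.23. With arrays centred on their medians the negative counts were 19 of 19 and 21 of 22, and those of branched-chain and fatty acid genes were 18 of 19 and 22 of 23. Members at adjusted p under 0.1 were then 6 for branched-chain and 2 for fatty acid genes.

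**Figure D4:**
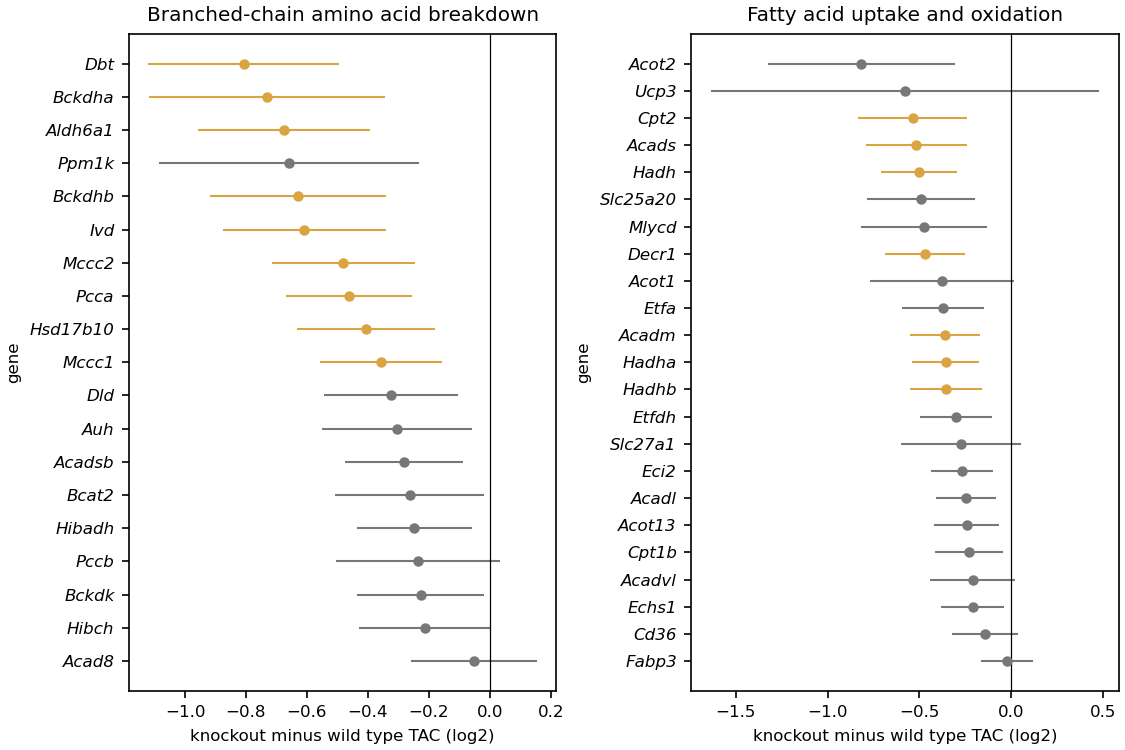
Difference between knockout and wild type TAC hearts on the log2 scale (x axis) for each measured gene (y axis) of 2 metabolic lists, with bars for the 95% confidence interval of limma. Orange genes had an adjusted p under 0.1; the differences of all 19 and 23 genes lie below 0, from -0.81 (Dbt) to -0.05 (Acad8) on the left.

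Genes of glucose uptake and glycolysis pointed both ways. Of 22 members 4 were higher at adjusted p under 0.1: the platelet and liver phosphofructokinases Pfkp (0.87 ± 0.17) and Pfkl (0.27 ± 0.07), the pyruvate dehydrogenase kinase Pdk3 (0.66 ± 0.13) and the glucose transporter Slc2a1 (0.52 ± 0.12). Ldhb, the heart form of lactate dehydrogenase, was lower (16.07, 15.75 and 16.03 against 15.49, 15.31 and 15.61; -0.48 ± 0.10). The insulin-dependent transporter Slc2a4 read 12.45, 11.87 and 12.12 against 11.74, 11.25 and 11.73 (-0.58 ± 0.15, adjusted p = 0.11). Regulators of metabolism were negative in 12 of 13, with 0 at adjusted p under 0.1. Without overlap 3 of them lay lower and 1 higher. Ppara differed by -0.48 ± 0.17 and Ppargc1a by -0.37 ± 0.18, both with overlapping groups.

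Txnip, which restrains glucose uptake, overlapped between the TAC groups at 15.12, 14.59 and 14.72 against 15.16, 15.55 and 14.76 (0.35 ± 0.27, adjusted p = 0.593). Its sham difference was -2.03, with 17.65, 17.10 and 16.85 in the wild type and 14.97, 14.87 and 15.66 in the knockout. This difference was not called, since the smallest limma adjusted p of any gene in the sham contrast was 0.21.

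Markers of cell types were read on the same arrays. Activated fibroblast markers were positive in 11 of 11, with 8 at adjusted p under 0.1, 10 without overlap and a median of 1.84. Their summed level, as log2 of the summed linear signals, was 13.57 to 16.16 over wild type hearts and 16.66 to 17.11 over knockout hearts. Meox1, a transcription factor of activated fibroblasts, read 9.62, 10.74 and 8.41 in the wild type and 11.10, 11.66 and 11.22 in the knockout. Several of these markers (Postn, Tnc, Comp, Thbs4, Cilp, Ltbp2, Ccn4) are also matrix genes in the lists above, so this count is not separate from theirs.

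General fibroblast markers were positive in 8 of 11 with a median of 0.29 and summed levels of 16.81 to 17.47 against 17.39 to 17.72. The part of activated fibroblasts in the matrix differences was not tested. Heart muscle markers, listed here as ventricular, were negative in 9 of 10 with a median of -0.20. Their summed levels were 20.02 to 20.10 against 19.92 to 20.04, and the sums include Myh6, which was near the top of the scale. With arrays centred on their medians 7 of 10 were negative. The part of these levels in the metabolic differences was not tested.

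**Figure D5:**
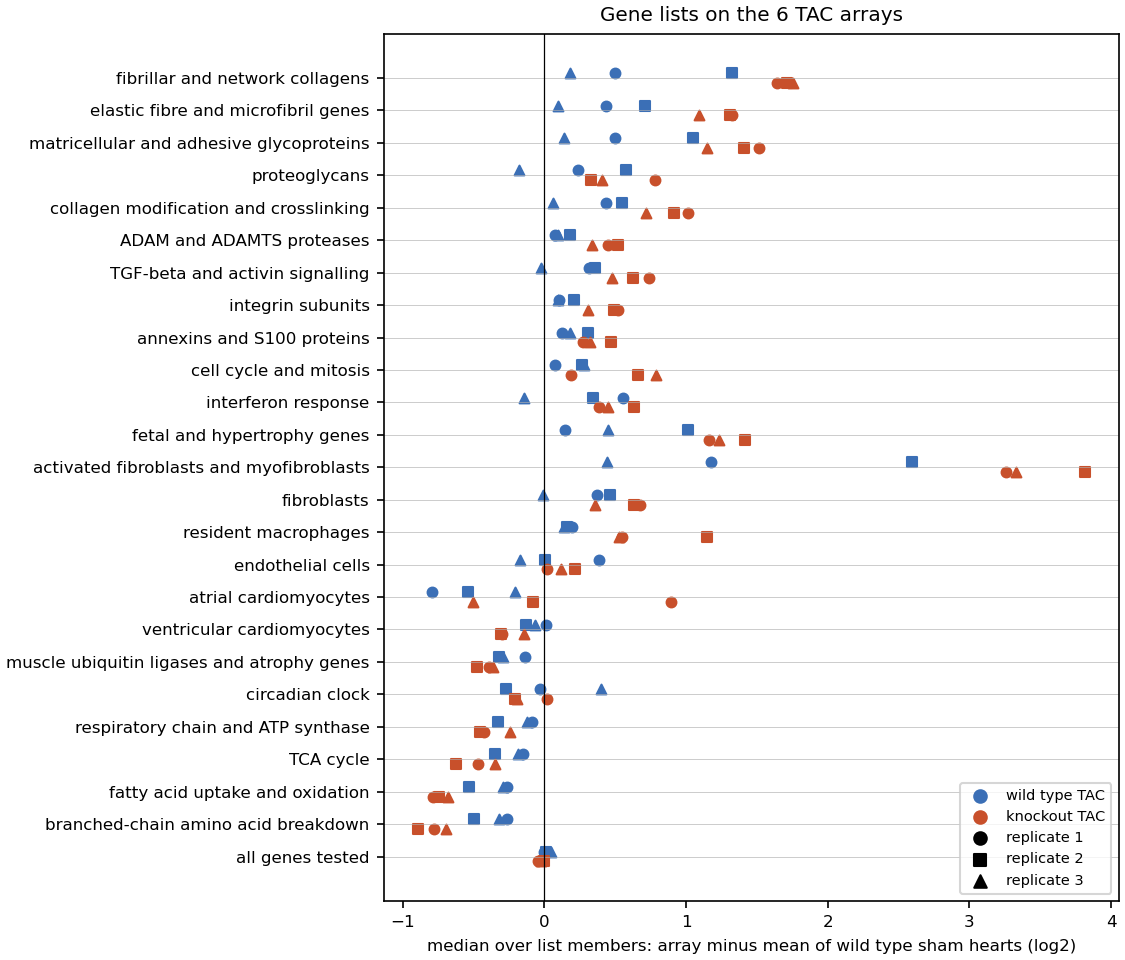
Median over the members of each gene list on each TAC array, relative to the mean of the wild type sham hearts on the log2 scale (x axis), for wild type (blue) and knockout (orange-red) hearts with a symbol for each replicate number. The collagen points of the knockout lie at 1.65 to 1.75 and those of the wild type at 0.18 to 1.33, and the medians over all genes lie between -0.05 and 0.05.

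General endothelial markers had a median of 0.06 over 13 genes, of which Pecam1 (0.28 ± 0.09, adjusted p = 0.162) alone had groups without overlap. Of 6 lymphatic markers 5 had positive differences and 1 a negative one, with a median of 0.10. Pdpn differed by 0.78 ± 0.20 (adjusted p = 0.093). The negative one was Prox1, the transcription factor that sets lymphatic identity (-0.56 ± 0.12, adjusted p = 0.0707). Of 6 endocardial markers Plvap was at adjusted p under 0.1, and their median was 0.03. Smooth muscle and pericyte markers were mixed, since Cspg4, a proteoglycan of pericytes, differed by 0.51 ± 0.11 and Abcc9, a channel subunit also made in heart muscle, by -0.68 ± 0.13. Resident macrophage markers were positive in 11 of 12 with a median of 0.42, and 0 were at adjusted p under 0.1. The exception was Timd4, a receptor of long-lived resident macrophages, which averaged 6.79 ± 0.20 (SD, n = 3) in the wild type and read 6.35, 6.34 and 6.36 in the knockout, lower without overlap (-0.44 ± 0.12, limma adjusted p = 0.117). Cd68 read 8.57, 8.31 and 8.25 in the wild type and 8.94, 9.24 and 8.70 in the knockout (0.58 ± 0.16, adjusted p = 0.117). Summed levels of this list overlapped (12.88 to 13.17 against 13.05 to 13.93), and knockout replicate 2 was the highest.

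Of 9 markers of recruited monocytes and macrophages 7 had positive and 2 negative differences, with a median of 0.24. The member at adjusted p under 0.1 was Fn1, which is also a matrix gene above. Ccr2, the receptor that recruits monocytes, read 6.97, 6.45 and 5.98 against 7.45, 8.19 and 6.94, with overlapping groups (adjusted p = 0.117). Markers of neutrophils, T and NK cells and B cells had medians of 0.05, 0.03 and -0.07, and 4 of 10, 7 of 9 and 3 of 5 of them were under 5 on all TAC arrays, near the dim end of the scale. Epicardial markers were positive in 7 of 7 with a median of 0.25 and 0 at adjusted p under 0.1.

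Genes of the cell cycle had positive differences in 23 of 24 members and 4 at adjusted p under 0.1. Groups did not overlap in 6 of them, or in 20 with knockout TAC replicate 1 left out. Leaving out an array can only keep or raise such a count, and its share over all genes was not taken. Mki67, a marker of dividing cells, read 6.43, 7.61 and 7.78 in the wild type and 7.71, 9.30 and 9.42 in the knockout (1.54 ± 0.47, adjusted p = 0.154). Ccna2, the cyclin of S phase, read 5.63, 6.00 and 6.07 against 6.26, 6.92 and 7.11 (0.87 ± 0.19, adjusted p = 0.0707). Here knockout replicate 1 and wild type replicate 1 were the lowest of their groups. Interferon response genes were positive in 14 of 15 with 7 without overlap and 0 at adjusted p under 0.1.

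Metallothionein Mt2, which binds zinc, read 13.68, 13.76 and 13.89 in the wild type and 15.27, 15.70 and 14.42 in the knockout (1.35 ± 0.28, adjusted p = 0.0631), while its relative Mt1 differed by -0.09 ± 0.21. Of 18 oxidative stress genes Cybb, the phagocyte oxidase (0.53 ± 0.13), was also higher at adjusted p under 0.1 and Gstm1 lower (-0.44 ± 0.10). Chaperones of the unfolded protein response had 0 of 20 at adjusted p under 0.1.

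Atrial markers and clock genes varied among the TAC hearts. Myl7, the atrial light chain, read 10.81, 11.72 and 12.33 in the wild type and 14.19, 12.28 and 11.41 in the knockout, and Bmp10, chosen after its values were seen, ranged from 4.40 to 14.97. Summed atrial levels were 15.14 to 16.30 against 15.65 to 16.83. With Myl7 as a covariate 0 genes were at adjusted p under 0.1, and the differences of Mmp3, Ccn5 and Fam180a were 1.63, 1.20 and 0.80. The clock genes Dbp and Arntl, also chosen after their values were seen, stood apart in wild type replicate 3 at 10.60 and 7.16, against 6.59 to 8.19 and 9.76 to 10.64 in the other 5 hearts. The part of the clock was not tested.

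The same genotype contrast was taken in the sham hearts, whose group means share no array with those of the TAC hearts. Both contrasts came from the same fit of all arrays and used its pooled variance, so their p-values are not independent. No gene was called by limma (0.0% higher and 0.0% lower, smallest adjusted p = 0.21, 1493 genes at an unadjusted p under 0.05), and groups did not overlap in 6.43% of genes that were higher and 5.9% that were lower. Of the 695 genes at adjusted p under 0.1 after TAC, 650 (93.5%) differed by less than 0.25 between genotypes in sham hearts, against 91.3% of all genes. The test of whether the genotype difference changed with surgery called 0 genes (0.0%, smallest adjusted p = 0.259, 2962 at an unadjusted p under 0.05). For Mmp3 this interaction was 1.63 ± 0.29, for Ccn5 1.20 ± 0.21 and for Fam180a 0.97 ± 0.13, each at adjusted p = 0.259. Leaving out wild type TAC replicate 2 turned the interaction counts to 117 genes higher and 34 lower.

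Probe sets not used for a gene numbered 31806. They had no symbol or several, or were the dimmer probe set of a gene read on another. In the fit of all probe sets 0 of them were at adjusted p under 0.05 and 12 under 0.1, and in the same fit Mmp3, Ccn5 and Fam180a were at adjusted p = 0.0637.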

How the data were processed

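Total RNA (250 ng) of 12 hearts was hybridised to Clariom D mouse arrays (Affymetrix), 1 array per heart, per the labels. The deposited values were log2 signals of 65527 probe sets, made by the authors with Affymetrix Expression Console, per the submitters' processing notes, and neither its version nor the normalization is given in the sources used here. The log2 scale was read from the values, 1.27 to 19.93. Depth does not apply, and 3 arrays per group limit the precision.

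The 6732 control probe sets took no part. The remaining 58795 were sorted by symbol: 27268 had 1 gene symbol, 1932 several and 29595 none. Symbols of 757 were updated through RefSeq. A gene was its brightest probe set over all 12 arrays among those with 1 symbol, which gave 26989 genes (198 with several), with no filter on dim genes.

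limma 3.58.1 in R 4.3.3 fitted 1 mean per group over 12 arrays (moderated, 2-sided, Benjamini-Hochberg over all genes, 8 residual degrees of freedom), and the procedure was tested on simulated data. Errors beside differences are limma standard errors. Alternatives were other samples, a replicate block, normalization, a filter on dim genes, variance models, array weights, Myl7 as a covariate, all probe sets, and each array left out.

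The members and lists were chosen with earlier results of these data known. Named genes were Adam12, every gene called (up to 12 each way), the next by p up to 12 each way whose groups did not overlap, the 8 with the highest and the 8 with the lowest differences at adjusted p under 0.1, up to 4 members by p of each list described, and fixed heart genes. Predicted genes and small RNAs were passed over. Other list members are named to show the range of their list and were chosen after their values were seen. The 57 lists held 971 entries, of which 787 were measured alone, 37 shared a probe set and 147 were not analysed here. Promoters were taken from RefSeq (GRCm38.p6).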

Additional observations from a re-analysis of the deposited data

How the results depend on the processing

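At adjusted p under 0.05 (3 genes higher and 0 lower in the fit of all 12 arrays), the counts of higher and lower genes were 0 and 0 with only the 6 TAC arrays, 0 and 0 with Myl7 as a covariate, 0 and 0 with every probe set, 1 and 0 with quantile normalization, 1 and 0 with arrays centred on their medians, 26 and 4 with trended and robust variance, and 410 and 122 without genes whose mean was under 5. At adjusted p under 0.1 (502 and 193), they were 0 and 0 with only the 6 TAC arrays, 0 and 0 with Myl7, 17 and 8 with every probe set, 3 and 2 with array weights, 620 and 63 with arrays centred on their medians, and 815 and 424 without dim genes. They stayed closer to the main counts with quantile normalization (534 and 242) and with trended and robust variance (569 and 236). Leaving out each array in turn gave 0 to 516 higher and 0 to 258 lower genes at adjusted p under 0.05, and 0 to 850 and 0 to 587 at 0.1. It gave 0 to 1 lower genes in the sham contrast and, in the interaction, 0 to 117 higher and 0 to 34 lower. The cause was not tested.

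With the replicate number as a block the TAC counts were 433 higher and 160 lower at adjusted p under 0.05 and 879 and 563 at 0.1. Same-numbered arrays had deviations correlated at 0.21, 0.08 and 0.09, so the pairing rests on a number alone, although each TAC array correlated best with its own number, a hint from the data and not the design. Knockout replicate 2 did so at 0.0833, against 0.0826 with wild type replicate 3. Of 203 named genes over 21 alternatives, 1 value changed direction: Atp2a2 with arrays centred on their medians (0.000452, adjusted p = 0.999). This was largely fixed in advance, since many alternatives leave the TAC difference as it was. Many named genes were also picked for groups without overlap, whose direction cannot change when a TAC array is left out. Dim genes and 3 arrays per group limit what could be called.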
